A study of Mus musculus with 6 samples.

Results

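Stellate cell and extracellular matrix genes other than collagens were followed in the whole pancreas of 8-week-old mice. The list of 38 symbols covers contractile proteins, mesenchymal surface receptors, matrix glycoproteins and proteoglycans, elastic fibre proteins, crosslinking enzymes, and matrix proteases with their inhibitors. They were taken from the deposited tables by gene symbol, with no filter on expression. Of these, 37 were found among 23099 symbols; the receptor gene Pdgfrb was not analysed here. Polyadenylated RNA was sequenced from 3 libraries of Ela1-Myc mice and from 3 libraries of WT mice, in a study of Myc and the maturation of acinar cells. In the Ela1-Myc line, Myc, a transcription factor of growth and division, is driven by the promoter of elastase 1, a gene of enzyme-secreting acinar cells, so the transgene is aimed at acinar cells and not at the mesenchymal cells that make most of the genes described here. Strain, sex and the number of animals behind a library are not given in the labels used here, and p-values therefore measure the spread between these libraries.

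Pancreatic stellate cells are the resident mesenchymal cells that lie around acini and ducts. In injury and in tumours they take on a myofibroblast state, in which they build contractile filaments and secrete fibronectin, collagens and matricellular proteins. Matrix is then shaped after secretion by crosslinking enzymes of the lysyl oxidase family, by metalloproteinases (MMPs) that cut it, and by tissue inhibitors of metalloproteinases (TIMPs). Many of these genes are also used by fibroblasts, pericytes and smooth muscle cells, so the list does not belong to stellate cells alone. Of the genes that mark stellate cells, Acta2, Des, Vim and Pdgfra had a value above 0 in every library, and Thy1 was listed at 0 in WT replicate 3.

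Expression is given as the authors' adjusted FPKM, fragments per length of transcript and per number of mapped fragments, divided by 100000. No sequencing depth is known for these libraries. A gene was tested where its mean over the 6 libraries reached 1. Of the 8802 such genes, 70.2% were higher and 0.239% lower in Ela1-Myc at a Benjamini-Hochberg adjusted p under 0.05 (limma, two-sided), and the median gene lay 1.22 log2 units higher. After median-of-ratios scaling, which sets the typical gene above 0 in all 6 libraries level, 17.0% were higher and 7.08% lower, and the median gene lay 0.22 log2 units higher. Both scales are given throughout, the second as "after scaling". A listed 0 is not evidence of absence: Gapdh, a gene every cell uses, had 347, 465 and 343 in Ela1-Myc, against 69.2 in WT replicate 2 and a listed 0 in both other WT libraries. Of the tested genes, 0, 29 and 13 had a listed 0 in the Ela1-Myc libraries, against 1061, 592 and 1426 in the WT libraries. Without the filter the order turned: of all 23099 symbols, 6102, 5269 and 5240 had a listed 0 in Ela1-Myc, against 3452, 2195 and 4713 in WT. The RNA integrity number (RIN) was 8.8, 7.2 and 8.3 in Ela1-Myc, against 7.3, 7.3 and 7.1 in WT, so that Ela1-Myc replicate 1 alone meets the minimum named in the protocol. Where 3 values follow each other, they belong to replicates 1, 2 and 3, which were numbered only to name the libraries.

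On the deposited scale nearly every gene of the list had its higher values in Ela1-Myc, and 16 passed the test after scaling. All 37 genes were above 0 in each Ela1-Myc library, while 12, 5 and 16 were listed at 0 in WT replicates 1, 2 and 3. Of the 37, 35 reached the mean of 1 and were tested; Thbs2 and Tnc did not reach it. On the deposited scale 34 of the 35 rose, none fell (also none at an unadjusted p under 0.05), and Dcn was not called, beside a background of 70.2% of genes higher. The median log2 change was 2.68, against 1.22 over all tested genes. After scaling 16 of 35 rose, none fell (also none at an unadjusted p under 0.05) and 19 were not called, beside a background of 17.0%; the median was 1.67, against 0.22. The 16 became 10, 7 and 7 without Ela1-Myc replicate 1, 2 or 3, and 20, 16 and 9 without WT replicate 1, 2 or 3. The count over all tested genes moved too, from 1495 to 1092, 526 and 428 in the first 3 of these fits. In the last 3 it was 1734, 1941 and 940. Quantile normalization gave 13 higher and a median of 1.56, beside 10.7% higher and 15.6% lower of all genes. Leaving the digestive enzyme genes out and equalising the totals gave 16 higher and a median of 1.84, beside 17.8% higher and 5.65% lower. These counts are a description: at least 1 WT library had a listed 0 for 17 of the 35 tested genes (48.6%), against 20.5% of all tested genes, and such a gene passes the filter largely through its Ela1-Myc values. Among the 18 genes above 0 in all 6 libraries, all 18 rose on the deposited scale, beside 68.7% higher and 0.429% lower of the 6995 genes of that kind. After scaling 4 of the 18 rose (Fstl1, Thbs1, Fbln1 and Loxl1), beside 9.21% higher and 9.78% lower, with a median of 0.68 against 0.03 over all such genes. Whether a higher value reflects more cells of a kind or more RNA per cell cannot be told apart in whole tissue.

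**Figure D1:**
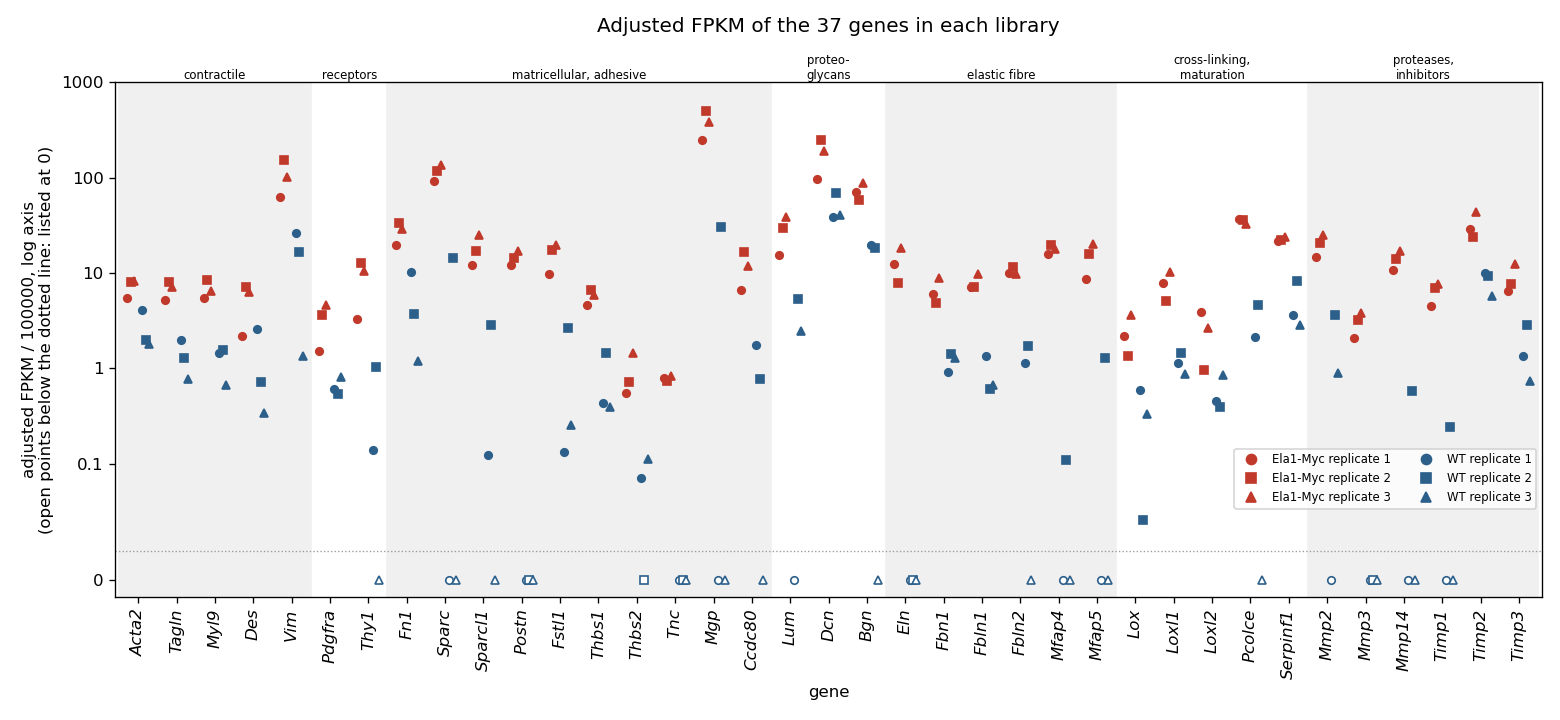
Adjusted FPKM divided by 100000 (log axis) of the 37 genes, ordered by role, in each Ela1-Myc library (red, left) and each WT library (blue, right); open points below the dotted line are listed at 0. All 3 red points lie above all 3 blue points for 36 of the 37 genes, Des being the exception, beside 75.3% of all tested genes, and the open points all belong to WT libraries.

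The contractile and cytoskeletal genes were called on the deposited scale and not after scaling. Acta2 (chromosome 19, 34241091 to 34255336, GRCm38) encodes alpha smooth muscle actin, the standard marker of activated stellate cells. Its values were 5.40, 7.98 and 8.17 in Ela1-Myc, against 4.06, 1.98 and 1.82 in WT. The groups did not overlap on this scale, and the log2 change of 1.21 ± 0.394 (SE) was close to that of the median gene (adjusted p = 0.0142). After scaling Acta2 was at 3.41, 5.27 and 3.96 in Ela1-Myc, against 10.1, 2.30 and 3.10 in WT, with WT replicate 1 highest of all 6 libraries and a log2 change of -0.05 ± 0.468 (SE) (adjusted p = 0.949). Ranked within each library among the tested genes, a measure free of any scaling, Acta2 stood at percentile 55.4, 66.9 and 64.6 in Ela1-Myc and 84.9, 49.8 and 67.9 in WT, and the groups overlapped. The listed zeros, more frequent in WT among tested genes, fill the lowest ranks there, which raises the percentile of a gene with a value.

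Tagln (chromosome 9, 45929628 to 45936058), an actin-binding protein of smooth muscle, and Myl9 (chromosome 2, 156775464 to 156781657), the regulatory myosin light chain, behaved alike. Tagln was at 5.19, 7.96 and 7.21 in Ela1-Myc, against 2.00, 1.29 and 0.776 in WT, a log2 change of 1.74 ± 0.351 (SE) (adjusted p = 0.000835) and of 0.60 after scaling (adjusted p = 0.299). Myl9 was at 5.48, 8.54 and 6.53 in Ela1-Myc, against 1.44, 1.57 and 0.670 in WT, a log2 change of 1.82 ± 0.345 (SE) (adjusted p = 0.000538) and of 0.71 after scaling (adjusted p = 0.162). Both pairs of groups stood apart on the deposited scale and overlapped after scaling, through WT replicate 1. Des (chromosome 1, 75360344 to 75367715), the intermediate filament of muscle and of quiescent stellate cells, was at 2.19, 7.14 and 6.38 in Ela1-Myc, against 2.57, 0.721 and 0.341 in WT. Ela1-Myc replicate 1 lay below WT replicate 1, so the groups overlapped on both scales (log2 change 1.51, adjusted p = 0.00703; 0.46, adjusted p = 0.609 after scaling). Vim (chromosome 2, 13574311 to 13582826) encodes the intermediate filament shared by all mesenchymal cells and by leukocytes. It was the most abundant of the 5 except in WT replicate 3, where Acta2 was higher. Vim was at 63.1, 154 and 101 in Ela1-Myc, against 26.4, 16.4 and 1.36 in WT. The WT libraries differed widely, and the log2 change of 3.27 ± 0.878 (SE) (adjusted p = 0.00502) became 1.85 ± 1.06 (SE) after scaling (adjusted p = 0.231). In all, 5 of 5 contractile and cytoskeletal genes rose on the deposited scale, beside 70.2% of all tested genes, with a median of 1.74. After scaling 0 of 5 rose (limma, also 0 at an unadjusted p under 0.05), beside 17.0%, with a median of 0.60.

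The promoter of Myl9 is shown because it alone among the 24 RefSeq promoter windows found for 21 of the 37 genes held an exact match to the CArG box (CC, then 6 bases that are each A or T, then GG, with no mismatch allowed), the site of serum response factor, which drives smooth muscle genes. Sequences that depart from it by a base were not counted, so the other windows may hold near matches. The window runs from 250 bases before to 50 after the transcription start (RefSeq, GRCm38.p6), both strands were searched, and capitals mark the CArG box, which starts at position -161 from the start site, and 3 GC boxes (GGGCGG or its complement), none overlapping another. An exact CArG box was present in 1.63% of all 32851 promoter windows and GGGCGG in 35.7%; an exact match to the first was found in the Myl9 window alone among those of the list, and 14 of the 24 held the second.
Myl9 promoter, chr2:156775214-156775513 (+ strand): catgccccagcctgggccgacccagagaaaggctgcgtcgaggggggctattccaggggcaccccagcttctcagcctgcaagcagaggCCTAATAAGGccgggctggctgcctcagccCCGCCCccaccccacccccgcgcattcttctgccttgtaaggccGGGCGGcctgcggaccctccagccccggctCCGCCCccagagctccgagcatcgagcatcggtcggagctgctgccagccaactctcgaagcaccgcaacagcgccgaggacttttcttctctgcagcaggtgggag

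Of the mesenchymal surface proteins, Thy1 rose on both scales and Pdgfra on the deposited scale. Pdgfra (chromosome 5, 75152291 to 75198204), the PDGF receptor of fibroblasts, was at 1.51, 3.64 and 4.56 in Ela1-Myc, against 0.604, 0.535 and 0.802 in WT. The groups stood apart, the log2 change being 1.29 ± 0.317 (SE) (adjusted p = 0.00300), but overlapped after scaling (0.38, adjusted p = 0.345). Thy1 (chromosome 9, 44043384 to 44048579), a surface glycoprotein of fibroblasts and, in mice, of T cells, was at 3.29, 12.8 and 10.4 in Ela1-Myc, against 0.139, 1.02 and 0 in WT, with a listed 0 in WT replicate 3. The groups stood apart on both scales (adjusted p = 0.000163, and 0.0266 after scaling), although the call after scaling was kept in 3 of 6 fits that each left out 1 library. The summed value of 11 lymphocyte markers, T cell genes among them, was 23.2, 231 and 144 in Ela1-Myc and 42.9, 0.419 and 0 in WT, and their part in the Thy1 values was not tested.

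Adhesive and matricellular genes held the widest differences in the list. All 8 tested genes of this group rose on the deposited scale, beside 70.2% of all tested genes, with a median of 3.35. After scaling 6 of 8 rose (Fn1 and Ccdc80 were not called), beside 17.0%, with a median of 2.48. For 5 of the 8 at least 1 WT library had a listed 0. Mgp (chromosome 6, 136872435 to 136875805), matrix Gla protein, an inhibitor of calcification, was at 246, 506 and 387 in Ela1-Myc, the highest level in the list. In WT it had 30.1 in replicate 2 and a listed 0 in replicates 1 and 3 (adjusted p = 0.000172, and 0.0240 after scaling). Sparc (chromosome 11, 55394501 to 55420080), a collagen-binding matricellular protein, showed the same layout, at 92.6, 117 and 136 in Ela1-Myc, at 14.4 in WT replicate 2 and with a listed 0 in both other WT libraries (adjusted p = 0.000177, and 0.0253 after scaling). Each Ela1-Myc library exceeded the single WT library with a value, for both genes. In these tests a listed 0 enters as a value. After scaling both were called in 2 of the 6 fits that each left out 1 library, with adjusted p up to 0.102 for Mgp and 0.101 for Sparc. In the libraries of RIN below 8 (Ela1-Myc replicate 2 against the 3 WT libraries, on the deposited scale) neither was called, at adjusted p = 0.147 for Mgp and 0.159 for Sparc.

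The Sparc relative Sparcl1 was at 12.2, 17.0 and 25.0 in Ela1-Myc, against 0.123, 2.85 and 0 in WT (adjusted p = 9.56e-05, and 0.0172 after scaling; the call after scaling was kept in 4 of the 6 fits that left out a library). Periostin, Postn (chromosome 3, 54361107 to 54391041), a matricellular protein of activated fibroblasts, was at 12.2, 14.2 and 16.9 in Ela1-Myc and listed at 0 in all 3 WT libraries, so that no fold can be given (adjusted p = 1.45e-06, and 0.000275 after scaling). Postn passed the filter on the mean through its Ela1-Myc values, and the listed zeros leave no spread in WT, so these p-values rest on the zeros. Tenascin C, Tnc, was at 0.790, 0.743 and 0.825 in Ela1-Myc and also listed at 0 in all 3 WT libraries; its mean stayed below the filter, and without a filter its adjusted p was 0.00332. Thrombospondin 2, Thbs2, the other gene below the filter, was at 0.550, 0.724 and 1.44 in Ela1-Myc, against 0.0698, 0 and 0.113 in WT (adjusted p = 0.0212 without a filter, beside 36.7% higher and 0.108% lower of 23099 genes). All 3 genes were low in Ela1-Myc beside Mgp and Sparc.

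Fstl1 and Thbs1 were above 0 in all 6 libraries and rose on both scales. Fstl1 (chromosome 16, 37777055 to 37836516), a secreted glycoprotein related to follistatin, was at 9.71, 17.3 and 19.6 in Ela1-Myc, against 0.132, 2.64 and 0.253 in WT. Its log2 change was 3.20 ± 0.480 (SE) (adjusted p = 0.000112) and 2.30 ± 0.473 (SE) after scaling (adjusted p = 0.0171), and the groups did not overlap on either scale. Thbs1 (chromosome 2, 118111922 to 118127133), thrombospondin 1, an activator of latent TGF-beta, was at 4.65, 6.70 and 5.89 in Ela1-Myc, against 0.431, 1.46 and 0.388 in WT. Its log2 change was 1.98 ± 0.329 (SE) (adjusted p = 0.000227) and 1.05 ± 0.249 (SE) after scaling (adjusted p = 0.0268), again with no overlap. Left-out libraries changed the calls after scaling: Fstl1 was called in 3 and Thbs1 in 1 of the 6 fits, with adjusted p from 0.00125 to 0.0797 and from 0.0138 to 0.0998. Fibronectin, Fn1 (chromosome 1, 71585523 to 71653171), the adhesive glycoprotein on which collagen is laid down, was at 19.5, 33.4 and 29.2 in Ela1-Myc, against 10.2, 3.72 and 1.20 in WT. It rose on the deposited scale (2.50 ± 0.614 (SE), adjusted p = 0.00295), while after scaling WT replicate 1, at 25.6, was the highest of all 6 libraries (1.14, adjusted p = 0.304). Ccdc80, a secreted matrix protein, was at 6.63, 16.4 and 11.8 in Ela1-Myc, against 1.77, 0.778 and 0 in WT, and the groups overlapped after scaling (adjusted p = 0.000150, and 0.0826 after scaling).

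**Figure D2:**
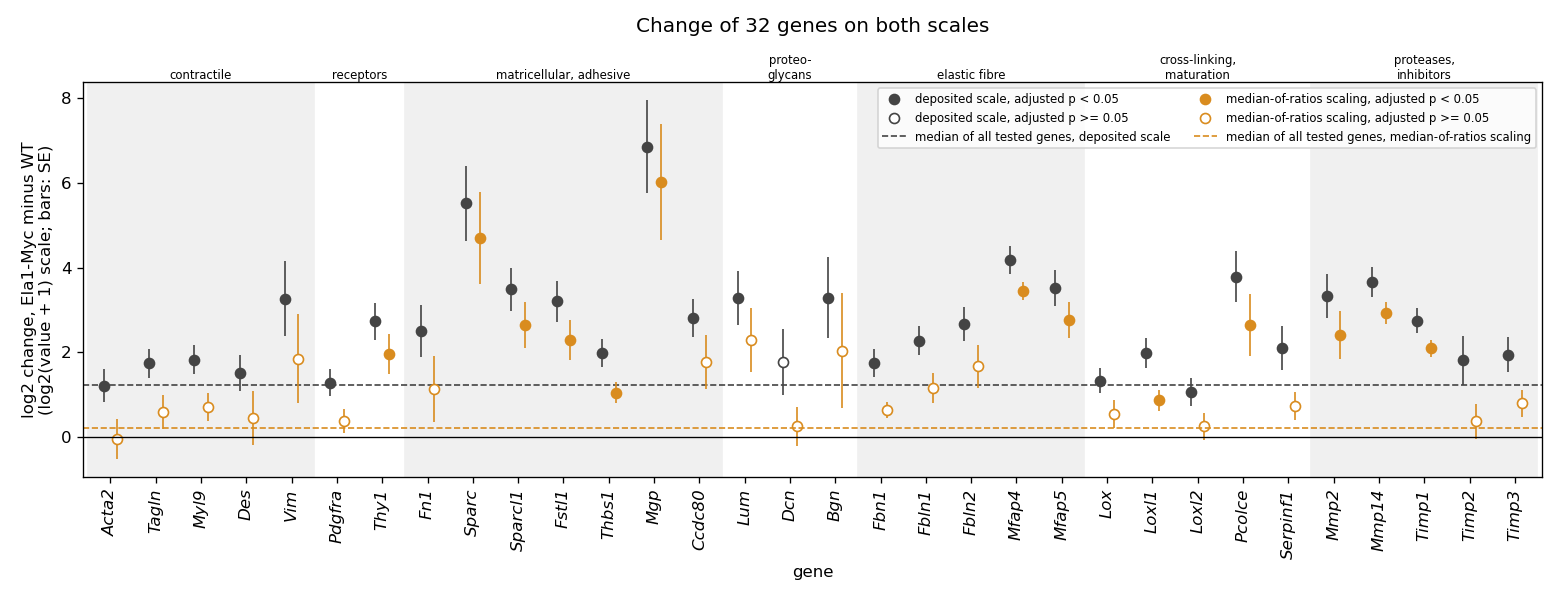
Log2 change (Ela1-Myc minus WT, on the log2(value + 1) scale, bars SE, n = 3 libraries a group) of the 32 tested genes with a value in at least 1 WT library, on the deposited scale (grey) and after median-of-ratios scaling (orange); filled points passed an adjusted p of 0.05, and dashed lines are the medians of all tested genes. Mgp and Sparc lie highest on both scales and Acta2, at 1.21 and -0.05, lies just below both dashed lines.

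The small leucine-rich proteoglycans, which coat and space collagen fibrils, were abundant and were not called after scaling. Decorin, Dcn (chromosome 10, 97479500 to 97518162), was at 97.3, 248 and 192 in Ela1-Myc, against 39.0, 69.1 and 41.0 in WT. The groups stood apart, and the means were 179 ± 76.1 in Ela1-Myc and 49.7 ± 16.8 in WT (SD, n = 3 each), but the difference of 1.78 ± 0.774 (SE) on the log2 scale did not pass (adjusted p = 0.0525; limma, all genes). Dcn was the tested gene of the list that was not called on the deposited scale, though 6 alternatives on that scale called it, with adjusted p from 0.000158 (array weights) to 0.0379 (a pseudocount of 1 before the division), the fit without WT replicate 2 among them. After scaling the change was 0.26 (adjusted p = 0.697), and Ela1-Myc replicate 1 was the lowest of all 6 libraries at 61.4. Within each library Dcn ranked at percentile 96.0, 97.9 and 97.7 in Ela1-Myc and 97.6, 96.4 and 97.2 in WT, so it was among the most abundant tested transcripts of every pancreas.

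Biglycan, Bgn (chromosome X, 73483635 to 73495936), was at 70.7, 58.0 and 88.2 in Ela1-Myc, against 19.8, 18.1 and 0 in WT, with a listed 0 in WT replicate 3. Lumican, Lum (chromosome 10, 97565501 to 97572703), was at 15.4, 29.8 and 39.0 in Ela1-Myc, against 0, 5.38 and 2.46 in WT, with a listed 0 in WT replicate 1. Both rose on the deposited scale (adjusted p = 0.00822 for Bgn and 0.000642 for Lum) and neither after scaling (adjusted p = 0.290 and 0.0655), where Bgn overlapped and Lum did not. On the deposited scale Bgn was not called without WT replicate 3 (adjusted p = 0.0652), with no filter (0.0738) or with a pseudocount of 0.1 (0.0662) or of 1 before the division (0.216). Lumican stood at 0.158, 0.120 and 0.203 of decorin in Ela1-Myc and at 0, 0.0778 and 0.0600 in WT, a ratio within each library in which the groups did not overlap.

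Elastic fibre genes rose together on the deposited scale, 6 of 6, beside 70.2% of all tested genes. After scaling 3 of 6 rose, beside 17.0%. The medians were 3.10 and 2.22. Elastin, Eln (chromosome 5, 134702596 to 134747254), the core of the fibre, was at 12.6, 7.77 and 18.1 in Ela1-Myc and listed at 0 in all 3 WT libraries (adjusted p = 3.46e-06, and 0.000666 after scaling). The microfibril-associated gene Mfap4 (chromosome 11, 61485444 to 61488704) was at 15.7, 19.8 and 17.8 in Ela1-Myc, against 0, 0.110 and 0 in WT (adjusted p = 1.45e-06, and 0.000400 after scaling). Mfap5 was at 8.61, 15.9 and 20.2 in Ela1-Myc, against 0, 1.28 and 0 in WT (adjusted p = 2.69e-05, and 0.00641 after scaling). In WT they had at most 1 library above 0, so the filter on the mean was passed through the Ela1-Myc values. For Eln the listed zeros leave no spread in WT, so its p-values rest on the zeros.

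Fibrillin 1, Fbn1 (chromosome 2, 125300594 to 125506438), which forms the microfibril scaffold, was above 0 throughout, at 5.98, 4.88 and 8.78 in Ela1-Myc, against 0.912, 1.41 and 1.29 in WT. The WT libraries were close together, and the log2 change was 1.75 ± 0.338 (SE) (adjusted p = 0.000626), or 0.65 ± 0.194 (SE) after scaling (adjusted p = 0.0528), with the groups apart on both scales. Fibulin 1, Fbln1 (chromosome 15, 85206008 to 85286294), was at 7.12, 7.08 and 9.86 in Ela1-Myc, against 1.33, 0.604 and 0.674 in WT, a log2 change of 2.28 ± 0.336 (SE) (adjusted p = 0.000103). After scaling the change of 1.17 ± 0.352 (SE) missed the threshold over all tested genes (adjusted p = 0.0530) and passed among genes above 0 in all 6 libraries (adjusted p = 0.0336). Fibulin 2, Fbln2, was at 10.1, 11.7 and 9.87 in Ela1-Myc, against 1.13, 1.73 and 0 in WT (adjusted p = 0.000122, and 0.0537 after scaling). The 3 genes had Ela1-Myc libraries above WT libraries on both scales.

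Fbln1 is shown with its promoter because its windows were the ones in the list that held CACGTG, the E-box that MYC and MAX bind, here starting at position -140 from the start site. Capitals mark the E-box and 2 GC boxes; CACGTG was present in 7.15% of all promoter windows.
Fbln1 promoter, chr15:85205758-85206057 (+ strand): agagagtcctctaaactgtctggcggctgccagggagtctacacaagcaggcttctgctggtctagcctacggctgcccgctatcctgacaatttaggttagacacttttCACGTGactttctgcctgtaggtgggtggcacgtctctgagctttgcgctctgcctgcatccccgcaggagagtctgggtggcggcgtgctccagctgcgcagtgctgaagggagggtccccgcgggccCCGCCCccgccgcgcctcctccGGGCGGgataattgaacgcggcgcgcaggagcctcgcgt

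Crosslinking and collagen maturation genes rose on the deposited scale, 5 of 5, beside 70.2% of all tested genes. After scaling 2 of 5 rose, beside 17.0%. The medians were 1.98 and 0.73. Lysyl oxidase, Lox (chromosome 18, 52517238 to 52529708), which crosslinks collagen and elastin, was at 2.18, 1.35 and 3.61 in Ela1-Myc, against 0.587, 0.0258 and 0.328 in WT. The groups stood apart on the deposited scale (1.33 ± 0.294 (SE), adjusted p = 0.00153) and overlapped after scaling (0.55, adjusted p = 0.255). Its relative Loxl1 (chromosome 9, 58287723 to 58313212), which acts on elastin, was at 7.85, 5.09 and 10.2 in Ela1-Myc, against 1.13, 1.45 and 0.876 in WT. It rose on both scales, by 1.98 ± 0.354 (SE) (adjusted p = 0.000362) and by 0.87 ± 0.250 (SE) after scaling (adjusted p = 0.0473), but the second call was kept in 1 of 6 fits that left out a library, and neither quantile normalization nor the scaling without enzymes gave it (adjusted p = 0.136 and 0.0826). Loxl2 was at 3.86, 0.957 and 2.63 in Ela1-Myc, against 0.453, 0.391 and 0.842 in WT (adjusted p = 0.00973, and 0.579 after scaling), and its change turned to -0.16 under quantile normalization (adjusted p = 0.749).

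Pcolce (chromosome 5, 137605107 to 137611404) encodes the enhancer of the proteinase that trims procollagen. It was at 36.8, 36.0 and 32.5 in Ela1-Myc, with little spread, and at 2.13, 4.67 and 0 in WT (adjusted p = 0.000160, and 0.0413 after scaling). Under quantile normalization its adjusted p was 0.0504, and after scaling it was called in 3 of the 6 fits that left out a library. Serpinf1 (chromosome 11, 75410029 to 75422623), the collagen-binding antiangiogenic factor PEDF, was at 21.5, 21.9 and 24.1 in Ela1-Myc, against 3.66, 8.21 and 2.83 in WT. Its log2 change of 2.10 ± 0.522 (SE) (adjusted p = 0.00322) became 0.73 ± 0.323 (SE) after scaling (adjusted p = 0.138), with the groups apart on both scales.

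Among the proteases and their inhibitors, all 6 rose on the deposited scale, beside 70.2% of all tested genes. After scaling 4 rose (Mmp2, Mmp3, Mmp14 and Timp1), beside 17.0%. Each of these 4 had a listed 0 in at least 1 WT library, while Timp2 and Timp3 were above 0 throughout. Mmp14 (chromosome 14, 54431604 to 54441258), the membrane-bound MMP that activates pro-MMP2, was at 10.8, 13.9 and 17.2 in Ela1-Myc. In WT it was at 0.577 in replicate 2 and listed at 0 in replicates 1 and 3 (adjusted p = 4.45e-06, and 0.00111 after scaling). Mmp14 passed the filter on the mean through its Ela1-Myc values, and its listed zeros enter the test as values. Its substrate Mmp2 (chromosome 8, 92827328 to 92853420), gelatinase A, was at 14.8, 20.8 and 25.0 in Ela1-Myc, against 0, 3.61 and 0.895 in WT (adjusted p = 0.000163, and 0.0266 after scaling). Stromelysin 1, Mmp3 (chromosome 9, 7445822 to 7455974), was at 2.09, 3.20 and 3.78 in Ela1-Myc and listed at 0 in all 3 WT libraries (adjusted p = 3.64e-05, and 0.00215 after scaling). It passed the filter on the mean through its Ela1-Myc values, and the listed zeros leave no spread in WT, so these p-values rest on the zeros. For the 3 genes the groups did not overlap on either scale. After scaling Mmp2 was called in 2 of the 6 fits that each left out 1 library.

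The inhibitors differed among themselves in level and in change. Timp1 (chromosome X, 20870166 to 20874737), the inducible inhibitor, was at 4.48, 6.88 and 7.75 in Ela1-Myc, at 0.243 in WT replicate 2 and with a listed 0 in both other WT libraries (adjusted p = 9.33e-06, and 0.00134 after scaling). It too passed the filter on the mean through its Ela1-Myc values, and its listed zeros enter the test as values. Timp2 (chromosome 11, 118301061 to 118355411), which also takes part in activating pro-MMP2, was at 28.8, 23.8 and 43.8 in Ela1-Myc, against 9.98, 9.33 and 5.71 in WT. Its means were 32.1 ± 10.4 in Ela1-Myc and 8.34 ± 2.30 in WT (SD, n = 3 each). On the log2 scale the change was 1.81 ± 0.575 (SE) (adjusted p = 0.0124) and 0.37 after scaling (adjusted p = 0.524), where WT replicate 1 was highest. Timp3 (chromosome 10, 86300412 to 86349505), which binds to the matrix, was at 6.55, 7.74 and 12.5 in Ela1-Myc, against 1.36, 2.83 and 0.736 in WT, a log2 change of 1.94 ± 0.409 (SE) (adjusted p = 0.00112) and of 0.79 after scaling (adjusted p = 0.109). Timp2 was the most abundant of the 3 in all 6 libraries. Within each library Timp1 stood at 0.156, 0.289 and 0.177 of Timp2 in Ela1-Myc and at 0, 0.0261 and 0 in WT, on the FPKM scale. Mmp14 stood at 0.376, 0.585 and 0.392 of Timp2 in Ela1-Myc and at 0, 0.0618 and 0 in WT. Mmp2 stood at 0.514, 0.874 and 0.570 of Timp2 in Ela1-Myc and at 0, 0.387 and 0.157 in WT. In none of these ratios did the groups overlap, and a listed 0 in WT sets the ratio to 0. Timp1 and Timp3 lie inside the synapsin genes Syn1 and Syn3, and no source used here says whether fragments were assigned by strand.

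The promoters of Mmp3 and Mmp14 are shown for their different layouts. Mmp3 held the single TGANTCA of the list, the AP-1 site, starting at position -46 from the start site, and no GC box; Mmp14 held 2 adjoining GC boxes starting at positions -19 and -13 and no TGANTCA. Capitals mark these letters. TGANTCA was present in 7.81% of all promoter windows, both strands being the same for this motif apart from its middle base.
Mmp3 promoter, chr9:7445572-7445871 (+ strand): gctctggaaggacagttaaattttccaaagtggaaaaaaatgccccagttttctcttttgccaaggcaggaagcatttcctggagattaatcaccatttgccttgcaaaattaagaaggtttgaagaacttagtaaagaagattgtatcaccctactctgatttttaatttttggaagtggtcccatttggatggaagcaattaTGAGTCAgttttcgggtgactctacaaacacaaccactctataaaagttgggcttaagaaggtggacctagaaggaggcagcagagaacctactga
Mmp14 promoter, chr14:54431348-54431647 (+ strand): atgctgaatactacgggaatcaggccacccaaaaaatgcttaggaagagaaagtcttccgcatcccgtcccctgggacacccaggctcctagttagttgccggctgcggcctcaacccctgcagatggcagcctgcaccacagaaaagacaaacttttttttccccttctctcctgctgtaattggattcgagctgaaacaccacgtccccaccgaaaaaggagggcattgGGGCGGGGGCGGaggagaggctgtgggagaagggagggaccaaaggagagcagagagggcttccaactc

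**Figure D3:**
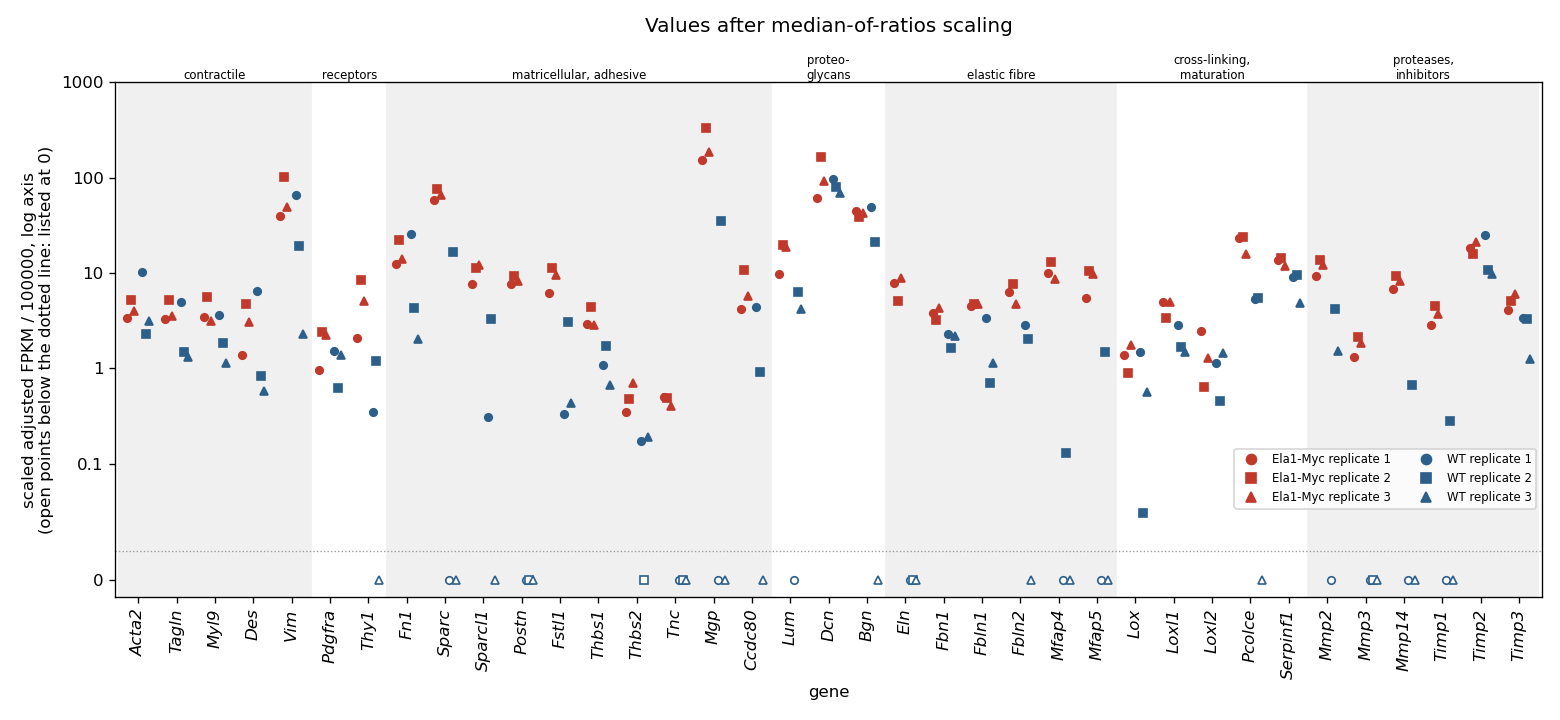
Values after median-of-ratios scaling (log axis) of the 37 genes in each Ela1-Myc library (red, left) and each WT library (blue, right); open points are listed at 0. WT replicate 1 (blue circles) reaches or passes the red points for Acta2, Des, Fn1, Bgn and Timp2, while the red points of Mgp, Sparc, Mfap4 and Mmp14 stay above all blue points.

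Groups that did not overlap numbered 34 of the 35 tested genes on the deposited scale, beside 75.3% of all tested genes (0.534% lay below), and 22 of 35 after scaling, beside 28.9% (17.2% lay below). The 13 that overlapped after scaling were the 5 contractile and cytoskeletal genes, Pdgfra, Fn1, Ccdc80, Dcn, Bgn, Lox, Loxl2 and Timp2. Ela1-Myc replicate 1, the library with the highest RIN, had the lowest value among the Ela1-Myc libraries for 26 of the 37 genes (23 after scaling). With the 4 libraries of RIN below 8 (Ela1-Myc replicate 2 against the 3 WT libraries, on the deposited scale), the median log2 change of the 32 tested genes was 2.94. With 1 library in Ela1-Myc, the spread in that group could not be measured. A listed 0 in WT enters these changes as a value.

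As a share of each library, a measure that needs no scaling between libraries, the summed value of the 37 genes was higher in Ela1-Myc. It made up 0.332%, 0.631% and 0.624% of the summed value of all genes outside the digestive enzyme list in Ela1-Myc, against 0.248%, 0.131% and 0.0831% in WT. The groups did not overlap, and Ela1-Myc replicate 1 and WT replicate 1 lay closest. Of all genes the shares were 0.0803, 0.234 and 0.180% in Ela1-Myc and 0.0196%, 0.0107% and 0.00554% in WT; the enzyme transcripts dominate that total, so it moves with them. Mgp, Dcn, Vim, Sparc and Bgn together held 65.2, 73.3 and 66.3% of the summed value in Ela1-Myc and 64.8, 71.0 and 64.8% in WT. Within it Mgp took 28.1, 34.3 and 28.3% in Ela1-Myc and 0, 14.4 and 0% in WT, and Dcn 11.1, 16.8 and 14.1% in Ela1-Myc and 29.7, 33.1 and 62.7% in WT, both without overlap between the groups. Listed zeros bear on these shares: WT replicate 1 had Sparc and Mgp at 0 beside Dcn at 39.0 and Vim at 26.4.

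**Figure D4:**
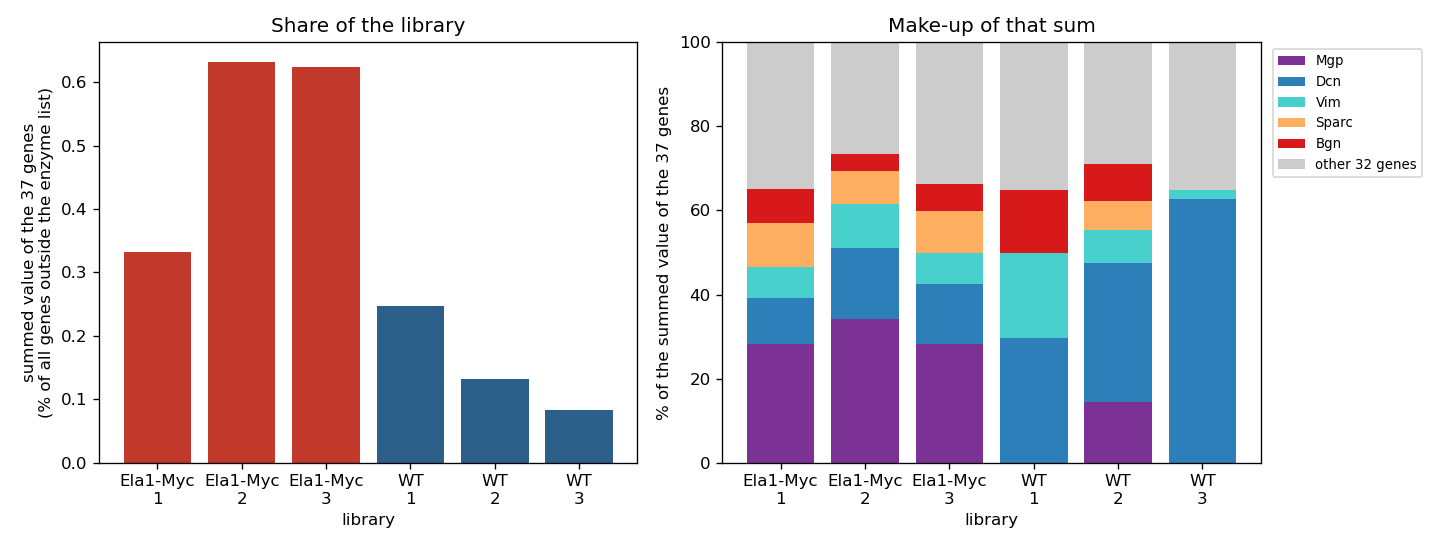
Left, the summed value of the 37 genes as a percentage of all genes outside the digestive enzyme list, 1 bar a library (Ela1-Myc red, WT blue); right, the percentage of that sum held by each of 5 genes. The Ela1-Myc bars reach 0.332% to 0.631% against 0.0831% to 0.248% in WT, and Mgp, absent from the bars of WT replicates 1 and 3, is the largest part in each Ela1-Myc library.

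Other matrix genes were mostly higher on the deposited scale too, where 70.2% of all tested genes were higher, against 17.0% after scaling. The medians over all tested genes were 1.22 and 0.22. Collagen chains rose in 14 of 14 tested genes on the deposited scale (median 2.23) and in 7 of 14 after scaling (median 1.06). They rose in 6 of 14 both under quantile normalization (10.7% of all tested genes) and with the enzymes left out (17.8%). Col3a1, the fibrillar collagen of reticular fibres, was at 58.5, 49.8 and 92.1 in Ela1-Myc, against 6.35, 11.7 and 2.32 in WT (adjusted p = 0.000868, and 0.0419 after scaling). Of 25 further fibroblast and stellate genes tested, 24 rose on the deposited scale (median 1.72) and 6 after scaling (median 0.51). Gelsolin, Gsn, the most abundant of them, was at 153, 243 and 246 in Ela1-Myc, against 48.4, 75.2 and 47.4 in WT (adjusted p = 0.0380, and 0.501 after scaling). Of 12 markers of smooth muscle and pericytes, 3 were tested; all 3 rose on the deposited scale and 1 after scaling, the pericyte gene Rgs5, at 6.80, 7.50 and 10.2 in Ela1-Myc, against 0.533, 1.797 and 0.876 in WT (adjusted p = 0.000215, and 0.00993 after scaling). Myh11, Cnn1, Actg2 and Lmod1, which define mature smooth muscle, are among the 9 whose mean stayed below 1.

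All 12 macrophage markers rose on the deposited scale, beside 70.2% of all tested genes, and 10 of 12 after scaling, beside 17.0%. Their summed values were 509, 1366 and 1102 in Ela1-Myc and 34.0, 60.0 and 0.952 in WT. For 10 of the 12 at least 1 WT library had a listed 0, and C1qa, C1qb and C1qc had it in WT replicates 1 and 3. Macrophages express Vim, Fn1, Mmp14 and Timp1 as well, and the part of these cells in the values above was not tested. Endothelial markers rose in 7 of 11 genes on the deposited scale, beside 70.2% of all tested genes, with a median of 0.87. After scaling 0 of 11 rose (limma, also 0 at an unadjusted p under 0.05), beside 17.0%, with a median of -0.24. None of them was listed at 0. Under quantile normalization 2 of 11 fell, beside 15.6% of all tested genes. Mesothelial markers rose in 4 of 4, beside 70.2%, and, after scaling, in 0 of 4 (also 0 at an unadjusted p under 0.05), beside 17.0%. Their summed values were 9.20, 27.4 and 17.1 in Ela1-Myc and 5.71, 3.87 and 3.07 in WT. Adipocyte markers summed to 177, 608 and 298 in Ela1-Myc and 285, 52.2 and 17.2 in WT, and lymphocyte markers to 23.2, 231 and 144 in Ela1-Myc and 42.9, 0.419 and 0 in WT. In both of these lists WT replicate 1 stood far above the other WT libraries and above Ela1-Myc replicate 1, and it is also the WT library with the highest Acta2, Tagln, Des, Vim and Fn1. The B cell gene Cd79a was at 22.2 in it and the fat cell gene Adipoq at 25.1, and Adipoq had 0.718 in WT replicate 2 and a listed 0 in WT replicate 3. Their part in the overlap of the contractile genes was not tested. Without WT replicate 1, 20 of the 35 genes rose after scaling, Tagln and Fn1 among them. Of all tested genes 1734 were then higher, against 1495 with all 6 libraries. Acta2, Des, Vim and Dcn were still not called without WT replicate 1.

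**Figure D5:**
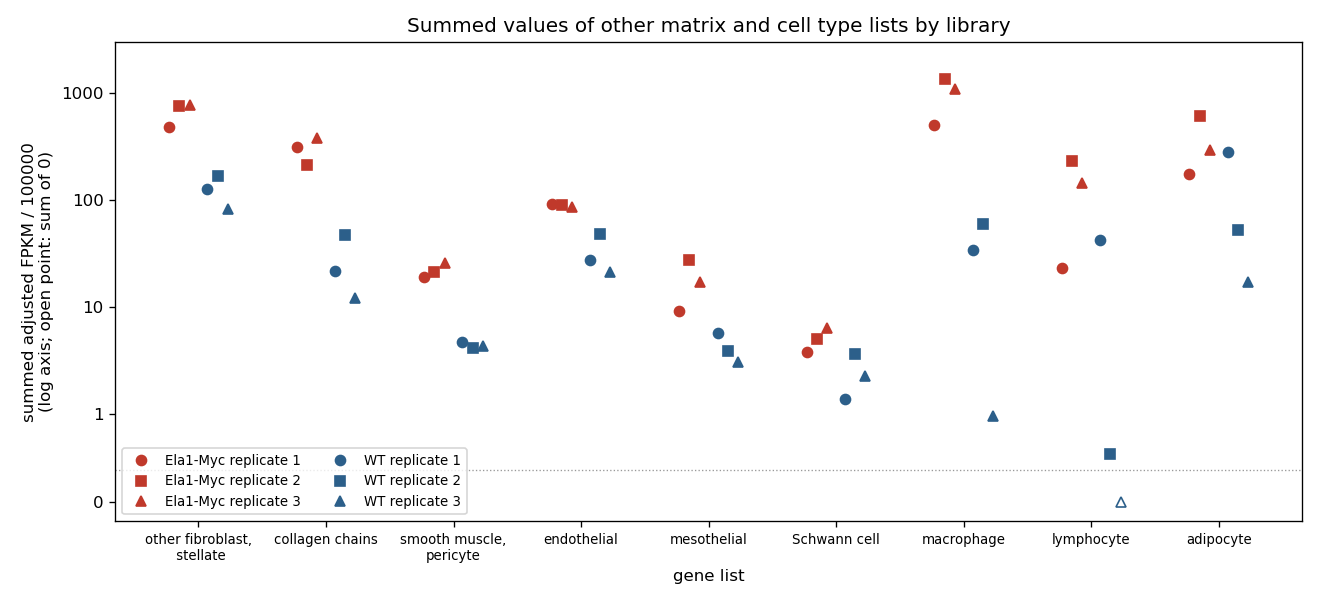
Summed adjusted FPKM divided by 100000 (log axis) of other matrix and cell type lists in each Ela1-Myc library (red, left) and each WT library (blue, right); the open point is a sum of 0. On this deposited scale, where all 3 Ela1-Myc libraries lie above all 3 WT libraries for 75.3% of tested genes, collagen, fibroblast, endothelial, smooth muscle and macrophage sums stand apart. Lymphocyte and adipocyte sums overlap through WT replicate 1. After scaling the fibroblast sums (307, 505 and 374 in Ela1-Myc, 316, 197 and 142 in WT) and the endothelial sums (58.8, 59.1 and 41.6, against 68.4, 56.8 and 36.3) overlap, which is not drawn.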

How the data were processed

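RNA-seq of polyadenylated RNA from pancreas gave 1 table per library, for 3 Ela1-Myc and 3 WT libraries. Libraries were strand-specific (dUTP) with ERCC spike-in RNA and were run on a Genome Analyzer IIx, per the labels' protocols. The deposited values are headed as adjusted FPKM, per the file headers; no source used here gives the adjustment. The submitters' processing notes list the build GRCm38 (mm10) and, in no stated order, Cufflinks 2.0.2, TopHat2 2.0.4, Bowtie, FastQC 0.9.4, CASAVA 1.8 and affy. Starts of gene loci were shifted by 1 base to count from 1.

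All values were divided by 100000, and for the 187 symbols with several of the 23422 rows the highest-mean row was used. The test was limma 3.58.1 in R 4.3.3, two-sided with a mean-variance trend, applied to log2(value + 1) of genes whose mean reached 1, with Benjamini-Hochberg adjustment over all 8802 genes; fold changes on this scale understate the change of low genes. The fit was tested on simulated data, drawn from genes above 0 in all 6 libraries with normal errors of 1 common spread. Changes were set equally up and down, so that test does not cover genes with listed zeros or a shift of the typical gene. No count model was used, since no read counts were used here, and no counting interval can be given. Alternatives were 3 other scalings, 2 pseudocounts, 2 filters, array weights, leaving out each library, and a RIN below 8. The genes and gene lists were chosen with earlier results of these data known, no list was tested as a set, and every gene of the list is named. The genes given with values from other lists are among the 4 with the highest mean in each. The promoters shown were picked after their motifs had been found. Python 3.11.15 and matplotlib 3.10.9 made the figures.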

Additional observations from a re-analysis of the deposited data

How the results depend on the processing

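The direction of 32 of the 35 tested genes of the list was the same under every alternative run for them. Acta2, Dcn and Loxl2 turned in at least 1. For Postn, Eln and Mmp3, listed at 0 in all 3 WT libraries, these zeros set the direction in advance. The 17 genes with a listed 0 in at least 1 WT library did not enter the alternatives limited to genes above 0 in all libraries. Acta2 turned to -0.045 after median-of-ratios scaling, also among genes above 0 in all libraries, and to -0.37 under quantile normalization. With median-of-ratios scaling it lay between -0.40 and 0.45 when single libraries were left out, Dcn at -0.11 without Ela1-Myc replicate 2, and Loxl2 at -0.015 without Ela1-Myc replicate 1; Loxl2 was at -0.16 under quantile normalization. On the deposited scale, leaving out single libraries gave 1.06 to 1.48 for Acta2, 1.49 to 2.16 for Dcn and 0.78 to 1.44 for Loxl2. The cause was not tested.

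Of all tested genes 6182 were higher and 21 lower on the deposited scale. The counts were 1495 and 623 after median-of-ratios scaling, 938 and 1371 under quantile normalization, 1557 and 495 with the enzyme list left out, 3369 and 6 with a pseudocount of 1 on the deposited scale, 644 and 684 when scaled and limited to genes above 0 throughout, and 840 and 0 with a RIN below 8 (also 0 lower at an unadjusted p under 0.05). Array weights, whose estimation stopped before it had converged, gave 132 lower. Genes of the list called higher numbered 34 on the deposited scale, 16 after median-of-ratios scaling and 13 under quantile normalization. They numbered 16 with the enzyme list left out and 20 with a pseudocount of 1 on the deposited scale. For a RIN below 8 only their median log2 change of 2.94 is given, since with 1 Ela1-Myc library the spread could not be measured. Among genes above 0 in all libraries, 18 of 18 genes of the list were called higher on the deposited scale and 4 after scaling. Their median log2 change was 2.68 on the deposited scale, 1.67, 1.56 and 1.84 under the 3 other scalings, 4.12 and 5.06 with pseudocounts of 0.1 and of 1 on the deposited scale, 1.82 and 0.68 among genes above 0 in all libraries without and with scaling, and 3.15 with array weights.

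Leaving out 1 library at a time gave 3937 to 7441 genes higher, 4 to 67 lower, 31 to 35 genes of the list higher and a median of 2.20 to 2.84 on the deposited scale. After scaling it gave 428 to 1941, 142 to 605, 7 to 20 and 1.06 to 1.79. With scaling the genes of the list called higher were 10, 7 and 7 without Ela1-Myc replicate 1, 2 or 3 and 20, 16 and 9 without WT replicate 1, 2 or 3. On the deposited scale Acta2 was not called without Ela1-Myc replicate 2 or 3 or WT replicate 3, and Timp2 without Ela1-Myc replicate 3 or WT replicate 3; Lox fell below the filter without Ela1-Myc replicate 3. With no filter Bgn, Des and Loxl2 were not called (adjusted p = 0.0738, 0.0643 and 0.0656). No paired analysis was possible because the labels give no replicate numbers that link the groups. Depth is unknown, so no limit of detection can be set for the listed zeros.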

Other observations

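Proteases, protease inhibitors and collagen chaperones outside the list were also followed. All 12 that were tested rose on the deposited scale (median log2 change 1.75), beside 70.2% of all tested genes. After scaling 8 of them rose (median 0.98), beside 17.0%. Under quantile normalization 4 rose, beside 10.7%, and with the enzymes left out 6 rose, beside 17.8%. For 4 of the 12, at least 1 WT library had a listed 0. Serpinh1, the chaperone that folds procollagen in the endoplasmic reticulum and the most abundant of them, had values of 179, 37.6 and 37.6 in Ela1-Myc, against 4.17 in WT replicate 2 and a listed 0 in both other WT libraries (limma adjusted p = 7.63e-05, and 0.0177 after scaling). Ela1-Myc replicate 1 was the highest for Serpinh1, while it was the lowest Ela1-Myc library for 26 of the 37 stellate and matrix genes. The sheddase Adam10 had values of 14.2, 5.02 and 9.32 in Ela1-Myc, against 0.129, 2.34 and 0.397 in WT (adjusted p = 0.000412, and 0.0483 after scaling). The membrane-bound MMP gene Mmp15 had values of 7.61, 2.85 and 6.56 in Ela1-Myc, against 0.289, 2.97 and 1.70 in WT, and the groups overlapped (adjusted p = 0.0123, and 0.497 after scaling).

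Of 6 Schwann cell markers 1 was tested. Mbp, a myelin protein gene, had values of 3.30, 4.24 and 5.30 in Ela1-Myc, against 1.35, 3.15 and 2.00 in WT (adjusted p = 0.0624, and 0.177 after scaling), and fell under quantile normalization, by 0.70 on the log2 scale. Of 7 tested duct markers 5 rose on the deposited scale, beside 70.2% of all tested genes. After scaling 2 rose and 1 fell, beside 17.0% higher and 7.08% lower. The medians were 1.65 and 0.30. Under quantile normalization 1 rose and 2 fell, beside 10.7% higher and 15.6% lower. The duct marker that fell after scaling was Muc1, at 55.9, 48.8 and 66.2 in Ela1-Myc, against 68.8, 129 and 121 in WT. Its log2 change was -0.85 on the deposited scale (limma adjusted p = 0.302) and -2.36 after scaling (adjusted p = 0.0049). Krt19 rose on the deposited scale and was not called after scaling, where its log2 change was 0.30. The matricellular and duct gene Spp1, osteopontin, which macrophages also make, had values of 107, 221 and 242 in Ela1-Myc, against 57.2 in WT replicate 2 and a listed 0 in both other WT libraries (adjusted p = 0.00146, and 0.0729 after scaling).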
